A study of Arabidopsis thaliana with 24 samples.

Results

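Transcript levels of Arabidopsis mutants of both MKK1 and MKK2 were compared with those of mutants of only 1 of these genes, 24 h after treatment with BTH. The comparison was drawn from the sample titles and used 9 of the 24 arrays of the series, 3 of mkk1/mkk2, 3 of mkk1 and 3 of mkk2. The value compared was the mkk1/mkk2 mean minus the mean of the 2 single-mutant means, for each of 22746 probe sets of the ATH1 array. The mkk1 line is SALK_027645 and the mkk2 line Garlic_511-HO1 by the source names, and each mutant is represented by 1 line. RNA came from whole soil-grown plants under short days. Treated Col-0 (the wild type, 3 arrays) and untreated plants of the same mutants (9 arrays) were used to place these values. All 24 arrays, untreated Col-0 included, also entered the fit, where they set the shared error estimate behind the p-values. The treatment notes give a 100 µM BTH spray for the mkk2 and mkk1/mkk2 plants and a control treatment for the mkk1 and Col-0 plants, so the BTH label of mkk1 and Col-0 rests on titles and source names. A sample description also calls every sample untreated Col-0.

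MKK1 and MKK2 are MAP kinase kinases that act side by side below MEKK1 and above the kinase MPK4. Loss of this module is known to leave plants dwarfed with constitutive defence responses, while loss of a single MKK has milder effects. BTH (benzothiadiazole) is a functional analogue of salicylic acid (SA) that switches on systemic acquired resistance. MKK1, MKK2, MPK4, PR1, PR2 and PR5 had no probe set assigned to a single gene in the annotation used and were not analysed here, so the genotypes could not be checked by the targeted transcripts.

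After BTH, transcripts of several secreted defence proteins, ATG8 autophagy proteins and 4 of 7 calcium sensors were higher in double than in single mutants. So were those of the auxin-conjugating enzymes GH3.3 and GH3.17. Part of the photosynthesis transcripts and 4 of 17 expansins were lower. The double and single mutants lay in different sets of arrays, described below. Against Col-0, which shared a set with mkk1/mkk2, the share of lower chloroplast-encoded photosynthesis genes was not far from that of all probe sets. At an adjusted p under 0.05 (limma, Benjamini-Hochberg over all probe sets), 5272 probe sets differed, 23.2% of those tested, with 2618 higher (11.5%) and 2654 lower (11.7%) in mkk1/mkk2. At least 2-fold differences were counted for 1096 higher (4.82%) and 660 lower (2.9%) probe sets. The median difference over all probe sets was -0.07 on the log2 scale, on which 1 is a 2-fold change. Centring each array on its own median gave 2234 higher and 3589 lower calls, so the near-even split rests on the deposited scaling. In 2417 of the higher and 2467 of the lower calls (10.6% and 10.8% of probe sets), the 3 mkk1/mkk2 arrays did not overlap the 6 single-mutant arrays.

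Correlations of an array with the others of its group, over probe sets, were 0.992 to 0.994 in treated mkk1/mkk2 and 0.988 to 0.992 in the treated single mutants. The spiked hybridization controls bioC and bioD split the arrays into 2 sets, with bioC minus bioD between -1.95 and -1.75 on the mkk1/mkk2 arrays and between -3.48 and -3.06 on the single-mutant arrays. Every treated double-mutant array thus belongs to one set and every treated single-mutant array to the other, and set and genotype cannot be told apart in this contrast. Treated Col-0 lies in the same set as mkk1/mkk2 (-1.87 to -1.76), so the difference from Col-0 within that set is given beside the main values below. The GAPDH 3′ minus 5′ signal, a measure of RNA integrity, was 0.14 to 0.52 in mkk1/mkk2 and -0.07 to 0.23 in the single mutants, and the actin 3′ minus 5′ signal was 2.98 to 3.70 and 2.46 to 3.18. Both leaned higher in mkk1/mkk2 with overlapping ranges, and their part in the results was not tested. Nothing in the labels ties replicates to separate plants or pools, so the p-values measure the spread between these samples, which may be technical. Outside the contrast, untreated mkk1/mkk2 replicate A stood apart, with a mean correlation of 0.933 to its group (0.961 and 0.962 for the other 2 arrays) and a GAPDH 3′ minus 5′ value of 1.27. This array, replicate A of treated Col-0 (0.975) and replicate B of untreated mkk2 (0.976) were each the lowest of their groups, and they enter the main contrast through the shared error estimate alone. Without these 3 arrays 8014 probe sets were called in place of 5272.

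Osmotin OSM34, a thaumatin-like antifungal protein of the PR5 family, showed the largest rise among probe sets with a gene name. Its log2 values were 11.65, 11.27 and 10.87 in mkk1/mkk2, against 4.44, 4.69 and 3.94 in mkk1 and 4.87, 4.47 and 4.27 in mkk2. The lowest double-mutant array was thus 6 units above the highest single-mutant array. The difference was 6.82 ± 0.19 (SE, 3 against 6 arrays, 113-fold, adjusted p = 3.9e-15), and it was 7.20 against Col-0. Caffeoyl-CoA O-methyltransferase CCOAMT, an enzyme family of phenylpropanoid metabolism, read 10.74, 10.67 and 10.59 in mkk1/mkk2 and 4.58 to 5.76 over the 6 single-mutant arrays, a difference of 5.54 ± 0.19 (46.4-fold). The mkk2 arrays (5.24 to 5.76) lay above the mkk1 arrays (4.58 to 5.11) for this gene, with no call between them.

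GH3.3, which conjugates the hormone auxin to amino acids, read 9.55, 10.10 and 10.05 in mkk1/mkk2 and 4.64 to 5.48 in the single mutants. The difference was 4.73 ± 0.31 (26.6-fold), and Col-0 lay lower still, at 3.92 to 4.26. A relative with the same activity, GH3.17, was higher by 2.98 ± 0.25 (7.91-fold), whereas GH3.9 was lower by -0.48 ± 0.16 (adjusted p = 0.033, a call lost under 8 of 17 other settings) and GH3.1 was not called (-0.08). Of the 11 measured auxin conjugation and response genes, 2 were higher and 2 lower, where 11.5% and 11.7% of all probe sets were called. Their median of -0.07 was that of all probe sets, and these counts are not read as a result about the family. The defensin-type gene PDF1.4 read 9.58 to 10.07 in mkk1/mkk2 and 4.60 to 5.92 in the single mutants, a difference of 4.69 ± 0.25. AT4G33150, which encodes the lysine-degrading enzyme lysine-ketoglutarate reductase/saccharopine dehydrogenase, was higher by 4.33 ± 0.34 (20.1-fold). The other genes among the 12 largest named rises were known here by locus code only: AT5G39520 (5.60 ± 0.25), AT1G30700 (5.55 ± 0.29), AT2G44240 (5.24 ± 0.25), AT2G31945 (4.75 ± 0.23), AT2G37750 (4.75 ± 0.23), AT3G02480 (4.72 ± 0.41) and AT1G05340 (4.45 ± 0.35). These 12 were chosen for having no overlap with the single mutants, and in none of them did a Col-0 array reach the mkk1/mkk2 arrays.

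**Figure D1:**
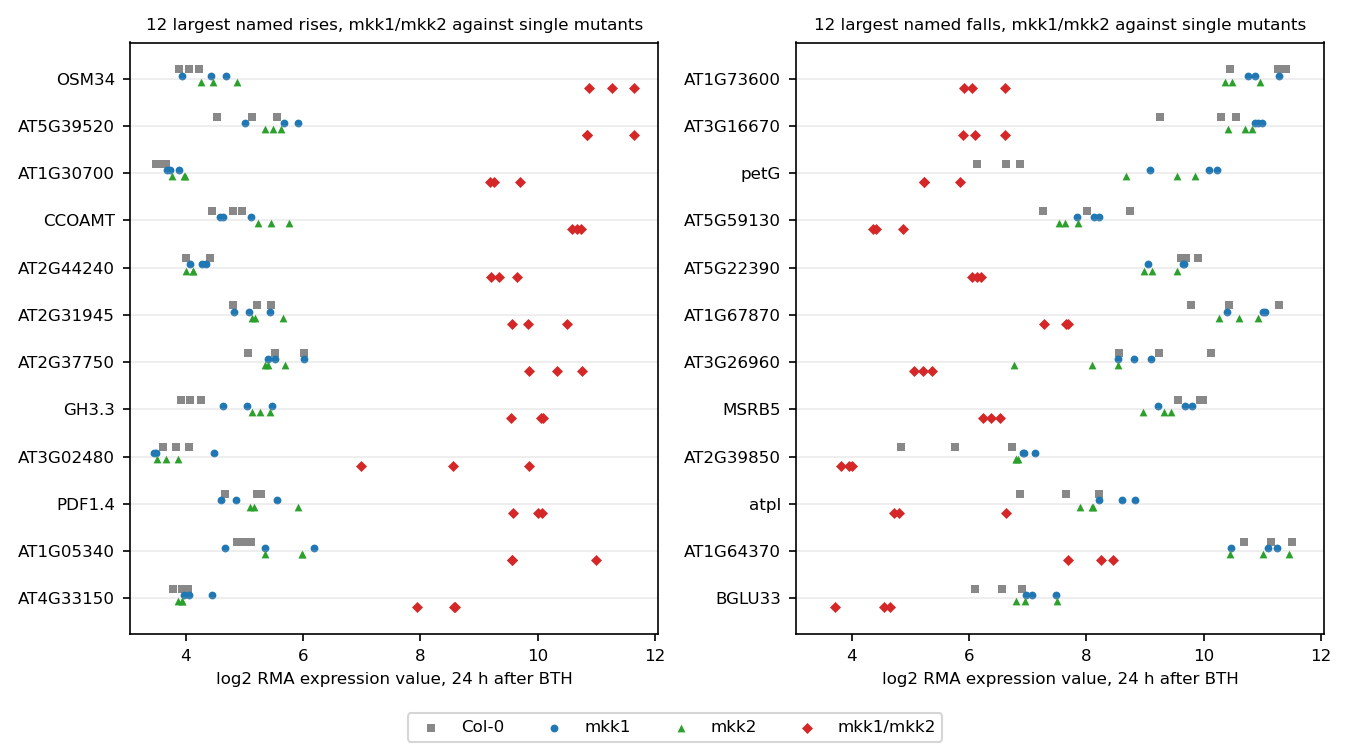
Log2 RMA values of each treated array (x axis) for the 12 largest named rises (left) and falls (right) of mkk1/mkk2 against the single mutants, with marker shape and colour giving the genotype and 3 points per genotype. In the left panel the mkk1/mkk2 arrays lie to the right of all other arrays, and in the right panel Col-0 sits near the single mutants for most genes but near mkk1/mkk2 for petG.

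Among 22 named defence and immunity genes, 12 were higher and 0 lower in mkk1/mkk2, where 11.5% and 11.7% of all probe sets were called. This list was put together after the annotation was seen, with earlier results of these data known. Its median difference was 1.03 against -0.07 over all probe sets, and centring the arrays turned 2 of the uncalled genes into lower calls. Beside OSM34, the 12 higher genes included the chitinases ChiC (3.26 ± 0.26, values 8.02, 6.55 and 6.84 against 3.69 to 4.02) and CHI (3.06 ± 0.24), which degrade fungal cell walls. The cell wall peroxidases Prx37 and PRX52 were higher by 2.63 and 2.21, and JRG21, a jasmonate-regulated oxygenase, by 3.19. Signalling genes rose as well: the immune subtilase SBT3.3 by 2.70, the receptor-associated kinase BIK1 by 1.66, the lipase-like SAG101 that works with EDS1 by 1.03, and the transcription factor WRKY6 by 2.40. The members that did not pass included WRKY53 (0.47, adjusted p = 0.58), the pattern receptor EFR (0.24, 0.40) and the ubiquitin ligases PUB22, PUB23 and PUB24 (-0.29 to 0.20). Against Col-0 in the same array set, 13 of the 22 were higher and 2 lower, where 11.4% and 10.2% of all probe sets were called.

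The BIK1 values were 9.15, 9.06 and 9.08 in mkk1/mkk2, 7.11, 7.07 and 7.26 in mkk1 and 7.86, 7.59 and 7.73 in mkk2. The 3 groups did not overlap, although mkk1 and mkk2 were not called different, and Col-0 was lower, at 5.95 to 6.71. The gap to mkk2 (1.37) and that to mkk1 (1.95) were both called. Over all probe sets, 4487 differed between mkk1/mkk2 and mkk1 (19.7%, with 2206 or 9.7% higher and 2281 or 10% lower, and 1884 and 2798 after centring) and 3640 between mkk1/mkk2 and mkk2 (16%, with 2041 or 8.97% higher and 1599 or 7.03% lower, and 1681 and 2161 after centring). These 2 counts share the double-mutant arrays.

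Few differences were called between the single mutants at this time. Between mkk1 and mkk2, 7 probe sets were called (0.0308%), 1 higher (0.0044%) and 6 lower (0.0264%) in mkk1, and 411 had an unadjusted limma p under 0.05 (1.81%). That share is smaller than this threshold gives with no differences at all, so the small count does not show that the 2 mutants were alike. Array weights gave 233 calls, and fitting these 2 groups alone gave 3. Hsp70-2, an Hsp70 chaperone, was among the 6, with 6.93, 6.48 and 6.59 in mkk1, 8.14, 7.71 and 7.85 in mkk2 and 9.65, 9.40 and 9.64 in mkk1/mkk2. The difference between mkk1 and mkk2 was -1.23 ± 0.19 (3 against 3 arrays, limma adjusted p = 0.0086), and the double mutant exceeded their mean by 2.28 ± 0.16. AT1G57630 had the same order, with means of 6.78 in mkk1, 8.28 in mkk2 and 9.05 in mkk1/mkk2, and a mkk1 minus mkk2 difference of -1.51 ± 0.22. Each of these 2 calls was lost under 4 of 15 other settings, at adjusted p of up to 0.13 for Hsp70-2 and 0.32 for AT1G57630. For Hsp70-2 these included leaving out mkk1 replicate B (-1.14), mkk1 replicate C (-1.20) or mkk2 replicate A (-1.11), and for AT1G57630 mkk1 replicate A (-1.34), mkk1 replicate C (-1.38) or mkk2 replicate A (-1.33). The 2 largest differences were in probe sets with no gene name here, picked out after their values were seen. Probe set 253646_at averaged 9.83 in mkk1, 7.22 in mkk2, 8.48 in mkk1/mkk2 and 9.64 in Col-0. Probe set 253993_at averaged 6.67 in mkk1, 9.36 in mkk2, 6.33 in mkk1/mkk2 and 9.15 in Col-0, so that mkk1 and mkk1/mkk2 were low together. The count of 7 fell to 3 without mkk1 replicate C or without mkk2 replicate A, and rose to 23 if untreated mkk1/mkk2 replicate A was left out.

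Autophagy genes were also higher. All 7 measured ATG8 genes, whose ubiquitin-like products coat the autophagosome membrane, were higher (median 0.99), or 6 after centring, where 11.5% of all probe sets were called higher. ATG8H read 7.99, 7.87 and 7.93 in mkk1/mkk2 against 4.85 to 5.47 in the single mutants (2.68 ± 0.41, 6.42-fold), and ATG8B 9.49, 8.98 and 9.10 against 6.75 to 7.54 (2.08 ± 0.23). For each of the 7, the double-mutant arrays lay above all 6 single-mutant arrays, as they did for 14.8% of all probe sets. Against Col-0, 4 of the 7 were higher, with ATG8F, ATG8C and ATG8G between 0.17 and 0.31 and not called. The 7 genes' mean level per array was 8.93 to 9.14 in mkk1/mkk2, 7.57 to 8.05 in the single mutants and 7.81 to 8.50 in Col-0.

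Of 7 calmodulin-like calcium sensors, 4 were higher and 1 lower, where 11.5% of all probe sets were called higher and 11.7% lower. CML37 read 7.14, 6.87 and 6.78 in mkk1/mkk2, a mean of 3.76 ± 0.38 (SD, n = 3) in mkk1 and 5.31, 4.46 and 4.71 in mkk2 (2.64 ± 0.22), so the mkk2 arrays lay between the other 2 genotypes, with no call between mkk1 and mkk2. CML41 and CML43 were higher by 2.47 and 1.35, while CML42 was lower by -1.32 ± 0.22. The jacalin-related lectins JAL33, JAL34 and JAL22 were higher by 2.50, 2.31 and 1.68, and JAL23, the last of the 4 measured, was not called (-0.54). The mean level of these 4 lectins was 6.29 to 6.65 per array in mkk1/mkk2, 4.41 to 5.48 in the single mutants and 4.27 to 5.29 in Col-0. The mean of the 2 measured root markers, PYK10 and EXPA7, was at 6.39 to 6.85, 4.41 to 5.65 and 3.80 to 5.66 in the same groups. PYK10 alone raised that mean, as EXPA7 was not called and its difference was negative. The part of root tissue in the lectin values was not tested. Of 21 beta-glucosidases, 6 were higher and 2 lower, and the lower count was near the 11.7% of all probe sets. The rises were led by BGLU31, at 7.44 to 7.75 against 3.19 to 3.71 (4.18 ± 0.42, 18.1-fold), followed by PYK10 (11.9-fold) and BGLU45 (7.98-fold). BGLU33 moved the other way, with 3.71, 4.66 and 4.56 in mkk1/mkk2 against 6.81 to 7.50 (-2.82 ± 0.29). The family median was 0.02 and changed sign after centring.

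PYK10, a beta-glucosidase of the endoplasmic reticulum bodies that is abundant in roots, was another of the 6. It read 9.40, 9.71 and 9.07 in mkk1/mkk2 and 4.81 to 7.21 in the single mutants, a difference of 3.57 ± 0.79 (adjusted p = 0.0024). The single-mutant and Col-0 arrays (3.53 to 7.24) were widely spread for this gene, and the double-mutant arrays were not. It was used here as 1 of 2 measured root markers. The other, the root hair expansin EXPA7, did not pass (-0.36, adjusted p = 0.21), and the leaf marker RCA, Rubisco activase, also did not (-0.56, adjusted p = 0.055). In RNA of whole plants, a change in the share of a cell type and a change in RNA per cell cannot be told apart, and the part of root tissue in these results was not tested.

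Sugar conjugation genes were called in both directions. Of 47 UDP-glycosyltransferases, 13 were higher and 5 lower, where 11.5% and 11.7% of all probe sets were called. The lower count was thus near the share of all probe sets. The family median was 0.05 and changed sign after centring. UGT73D1 rose by 2.60 ± 0.23 and UGT73B5 by 1.87 ± 0.19, with all 3 double-mutant arrays above every other treated array. UGT76B1, which glucosylates small immune regulators including SA, read 8.34, 8.14 and 8.21 against 5.60 to 7.35 (1.59 ± 0.30). Of 16 genes gathered by defensin and thionin symbols, 6 were higher and 2 lower, but PDF1A and PDF1B among the 16 are peptide deformylases that share the symbol, and PDF1B was 1 of the 2 lower (-0.69). The 6 higher genes included PDF1.4, LCR69 (2.12), the thionin THI2.2 (1.79) and PDF1.2 (1.01 ± 0.34, adjusted p = 0.037). PDF1.2 was at 5.47 to 5.75 in mkk1/mkk2 and 4.05 to 5.69 in the single mutants, so the groups overlapped, and Col-0 was at 5.39 to 5.74. That call was lost under 9 of 17 other settings, and near-identical PDF1.2 copies can share probes.

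**Figure D2:**
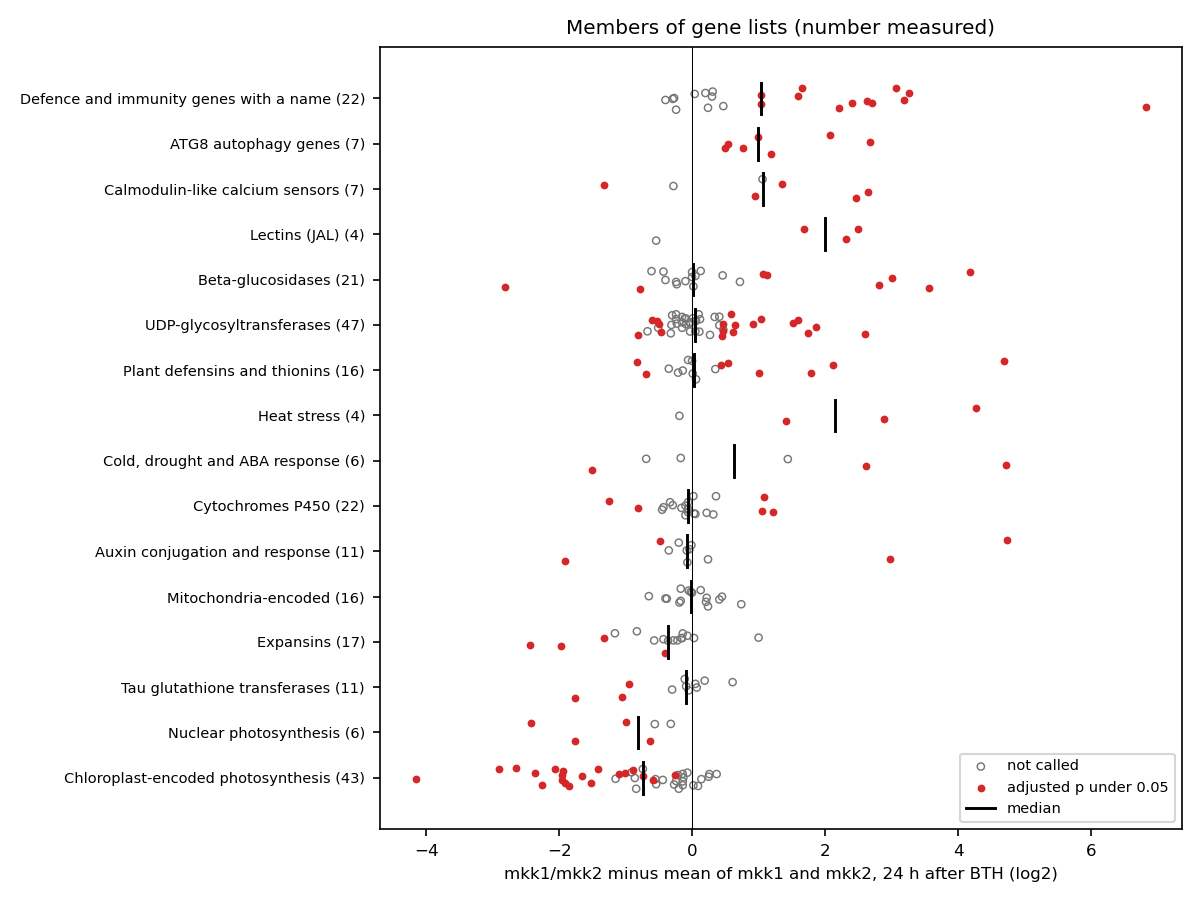
Difference of mkk1/mkk2 from the mean of mkk1 and mkk2 after BTH (x axis, log2) for each measured gene of 16 lists, with filled red points for genes called at an adjusted p under 0.05, open points for the rest and a black bar at the list median (the defensin row includes the deformylase genes PDF1A and PDF1B). The ATG8 and named defence lists lie mainly to the right of 0, both photosynthesis lists to the left, and the glycosyltransferase and beta-glucosidase families on both sides.

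Genes lowered in the double mutant were led by AT1G73600, at 6.06, 6.61 and 5.92 in mkk1/mkk2 and 10.36 to 11.29 in the single mutants (-4.59 ± 0.27, 24.1-fold lower), with Col-0 at 10.45 to 11.40. AT3G16670 read 5.90, 6.62 and 6.11 against single-mutant means of 10.93 in mkk1 and 10.65 in mkk2 (-4.58 ± 0.24), and here too Col-0 was high (9.26 to 10.56). Methionine sulfoxide reductase MSRB5, which repairs oxidized methionine, was at 6.24 to 6.53 against 8.96 to 9.81 (-3.03 ± 0.16, 8.15-fold lower). In these 3 genes the double-mutant arrays stood below all 9 other treated arrays.

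Of 6 measured photosynthesis genes of the nucleus (23 listed), 4 were lower and 0 higher, with a median of -0.81. Over all probe sets, 11.7% were called lower. The light-harvesting antenna gene LHCB4.3 was at 8.11, 8.44 and 8.24 in mkk1/mkk2 and 10.37 to 10.93 in the single mutants (-2.42 ± 0.19, 5.34-fold lower). The Calvin cycle enzymes PRK (phosphoribulokinase) and SBPASE (sedoheptulose bisphosphatase) fell by 1.76 and 0.99 on the log2 scale. Against Col-0, LHCB4.3 (-2.06) and SBPASE (-1.15) were called and PRK (-0.97, adjusted p = 0.064) was not, and the Col-0 arrays for PRK ranged from 10.63 to 12.15.

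Among photosynthesis genes encoded in the chloroplast, 20 of 43 were lower and 0 higher than in the single mutants (median -0.74). The other 23 were not called, and 11.7% of all probe sets were called lower. The chloroplast RNA polymerase genes rpoA, rpoB, rpoC1 and rpoC2 were not called by limma, and 0 of the 4 had an unadjusted p under 0.05 (median -0.17). Of the 43 photosynthesis genes, 6 were lower and 0 higher (median -0.45) against Col-0 in the same array set. Over all probe sets 10.2% were called lower in that comparison, a share not far from that of the 6. Without the 3 arrays that stood apart, 12 of the 43 were lower, where 2847 of all 22746 probe sets were. petG, a subunit of the cytochrome b6f complex, read 5.23, 5.23 and 5.84 in mkk1/mkk2, 9.09 to 10.23 in mkk1 and 8.68 to 9.86 in mkk2 (-4.15 ± 0.43). Col-0 was at 6.13 to 6.87, below every single-mutant array, and the difference of mkk1/mkk2 from Col-0 was -1.11 (adjusted p = 0.13). psaA, a photosystem I core protein, differed by -2.36 from the single mutants and by -0.65 from Col-0 (adjusted p = 0.39). The ATP synthase subunit gene atpI kept a called difference from Col-0 (-2.91 and -2.19). The gap in atpA (-2.65 ± 0.80) came from values of 5.80, 8.53 and 9.61, and it was -1.56 with adjusted p = 0.20 without mkk1/mkk2 replicate A. Of 16 genes with symbols of mitochondrial proteins, 0 were called by limma (1 had an unadjusted p under 0.05), with a median of -0.01.

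**Figure D3:**
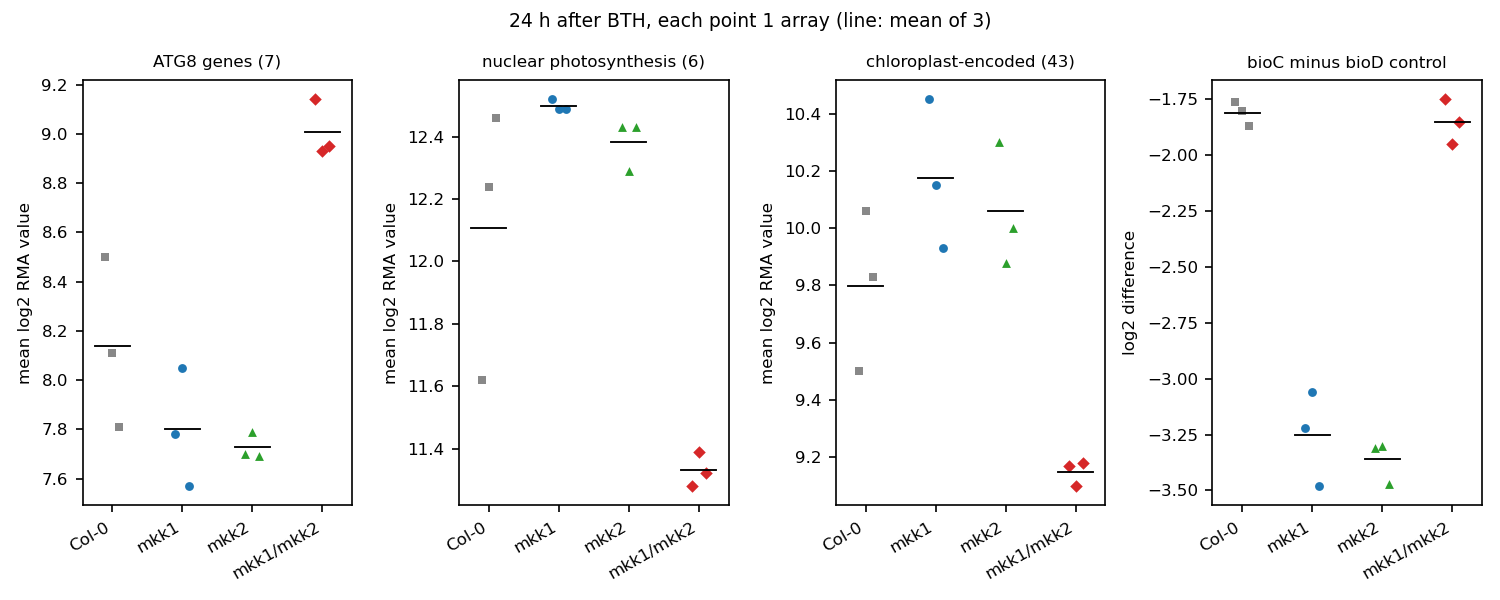
Mean log2 RMA value per treated array for the 7 ATG8 genes, the 6 nuclear and the 43 chloroplast-encoded photosynthesis genes, and the bioC minus bioD control difference in the last panel, by genotype with a line at the mean of 3 arrays. The y axes do not start at 0, the ATG8 mean is highest in mkk1/mkk2, both photosynthesis means are lowest there, and the control separates Col-0 and mkk1/mkk2 from the single mutants.

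Calls among cell wall genes went both ways, where 11.5% of all probe sets were called higher and 11.7% lower. The few calls in the last 2 families below are not read as results about those families. Of 17 expansins, which loosen cell walls, 4 were lower, 0 higher and 13 not called (9 lower without the 3 arrays that stood apart). EXPA16 was at 4.24 to 4.45 against 5.90 to 7.42 (-2.43 ± 0.45) and EXPB1 at 4.69 to 5.09 against 6.46 to 7.25 (-1.97 ± 0.26). Of 9 xyloglucan-modifying enzymes of the wall, XTH32 fell by 2.32 on the log2 scale, and XTH29 and XTH18 rose by 1.23 and 1.06 (XTH18 by 0.88, adjusted p = 0.051, without mkk1/mkk2 replicate C). Of 7 cellulose synthase-like genes (CSLA, CSLC and CSLD types), CSLD2 was higher (1.34 ± 0.19), and the other 6 were not called. The auxin response repressor IAA29 read 5.07 to 5.73 against 7.02 to 7.98 (-1.91 ± 0.33).

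Several metabolic genes were lower too. Tau-class glutathione transferases counted 3 lower and 0 higher of 11, where 11.7% of all probe sets were called lower and 11.5% higher. Among them GSTU20 was at 9.70 to 10.10 against 11.24 to 12.04 (-1.76 ± 0.15). BCAT4, which starts methionine chain elongation for aliphatic glucosinolates, fell by 2.13 on the log2 scale, and JMT, which methylates jasmonic acid, by 2.06. Among the 15 sugar transporters measured, SWEET13 (-1.65) and SWEET17 (-1.34) were lower, while SWEET2 (1.51) and SAG29, also known as SWEET15 and linked to senescence (2.35), were higher. These calls are not read as a result about the family. SWEET13 was at 6.92 to 7.85 in Col-0, where only mkk1 replicate A (7.01) of the single-mutant arrays lay within that range, and its gap to Col-0 was -3.21.

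Most probe sets with a 2-fold difference after BTH also had one before treatment. Without BTH, 7853 probe sets differed between mkk1/mkk2 and the single mutants (34.5%, with 3535 or 15.5% higher and 4318 or 19% lower), on arrays that cross the same 2 sets. Of the 1096 probe sets at least 2-fold higher after BTH, 824 (75.2%) were also at least 2-fold above the untreated single mutants, compared with 7.38% of all probe sets. Of the 660 lower ones, 562 (85.2%) were at least 2-fold lower untreated, compared with 7.21% of all. OSM34 averaged 10.44 in untreated mkk1/mkk2, 5.17 in mkk1 and 4.25 in mkk2. CCOAMT, GH3.3 and PDF1.4 had untreated gaps of 5.50, 4.40 and 5.04, and AT1G73600 one of -4.53. The response difference was called for OSM34 (1.09, adjusted p = 0.02) and not for the other 4 genes (-0.35 to 0.34, adjusted p of 0.68 to 0.97).

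**Figure D4:**
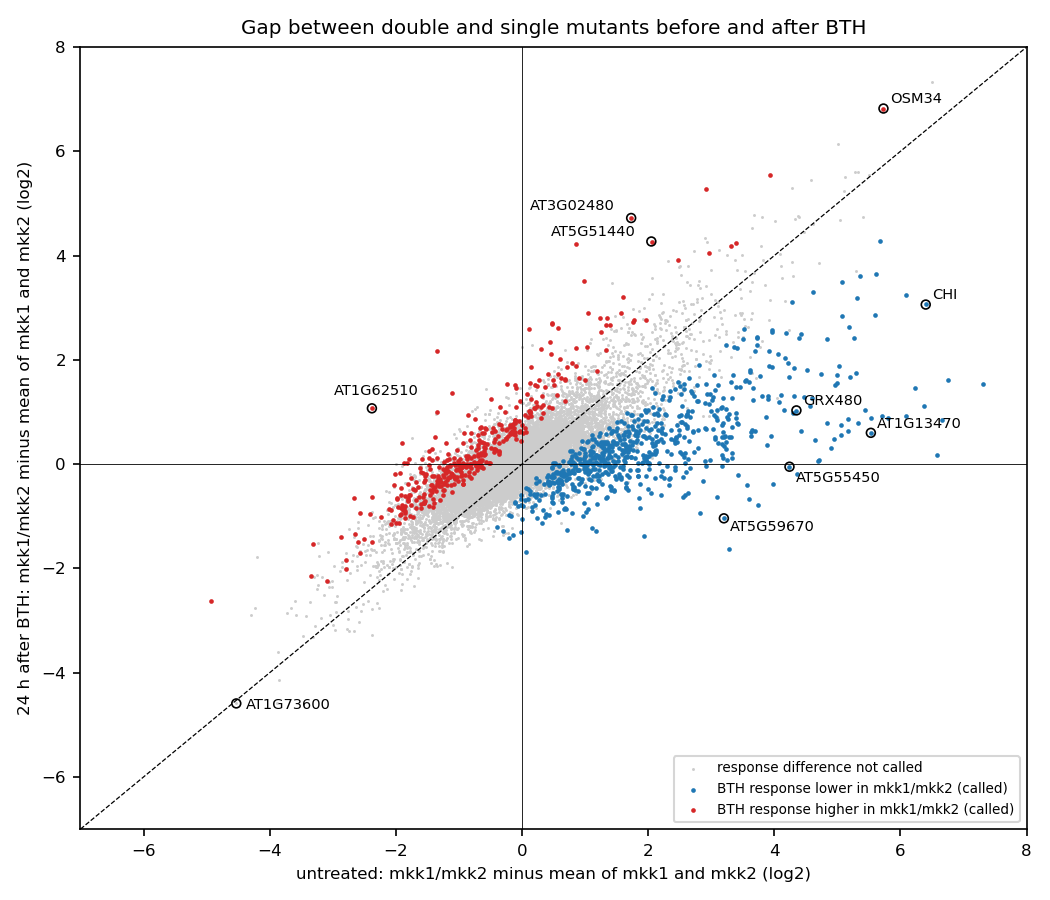
Each point is 1 probe set, with the mkk1/mkk2 minus single-mutant difference untreated on the x axis and after BTH on the y axis (log2), and a dashed line of equality. Blue and red points mark 693 lower and 378 higher called BTH responses in mkk1/mkk2, and the named blue points other than CHI lie between -1.04 and 1.03 after BTH, against 3.20 to 5.53 untreated.

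The change of the gap on treatment was tested directly as the BTH response of mkk1/mkk2 minus the mean response of the single mutants. A constant offset between array sets cancels in this difference. It was called for 1071 probe sets (4.71%), with 693 lower (3.05%) and 378 higher (1.66%) responses in the double mutant. The count rose to 1651 without untreated mkk1/mkk2 replicate A and fell to 703 without treated mkk1/mkk2 replicate C. Among the 693, the median response was 1.35 in the single mutants and -0.06 in mkk1/mkk2, and the median gap went from 1.67 untreated to 0.21 after BTH. These medians describe probe sets chosen on the same values.

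The gap narrowed in several SA-related genes. Of 35 such genes listed, 6 were measured, and the rest had no probe set assigned to a single gene here. Of the 6, 4 had a lower response in mkk1/mkk2 (3.05% of all probe sets). After BTH, 4 of the 6 were still higher there (11.5% of all probe sets). CHI rose by 4.01 on treatment in the single mutants and by 0.67 in mkk1/mkk2. It was at 12.52, 12.17 and 12.11 in treated mkk1/mkk2 and 8.64 to 9.56 in the treated single mutants, so the gap narrowed from 6.40 to 3.06 (response difference -3.34, adjusted p = 2.8e-06) without closing. GRX480, a glutaredoxin induced by SA that binds TGA factors, narrowed from 4.35 to 1.03, and treated Col-0 (8.92 to 9.65) reached the lowest array of mkk1/mkk2 (9.64 to 9.97), with a gap of 0.42 that was not called. UGT76B1 narrowed from 3.53 to 1.59, and the ubiquitin ligase RING1, with a response difference of -2.48, ended at a gap of 0.30 that was not called.

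For other genes the single mutants caught up with the double mutant. AT5G55450 was at 12.26 to 12.50 in mkk1/mkk2, 12.20 to 12.61 in the single mutants and 12.21 to 12.56 in Col-0 after BTH, and the groups overlapped fully. Untreated, its gap had been 4.24. AT1G13470 went from a gap of 5.53 to 0.60 (adjusted p = 0.15). AT5G59670 turned over, from 3.20 untreated to -1.04 ± 0.21 after BTH (adjusted p = 0.001), with 6.34 to 6.95 in mkk1/mkk2 and 7.23 to 8.13 in the single mutants. MSRB9, a relative of MSRB5, stayed higher by 2.43 after a gap of 5.26, with the mkk2 arrays (8.61 to 9.09) above the mkk1 arrays (7.15 to 7.77) but no call between them. Thus MSRB5 and MSRB9 differed in opposite directions at 24 h.

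**Figure D5:**
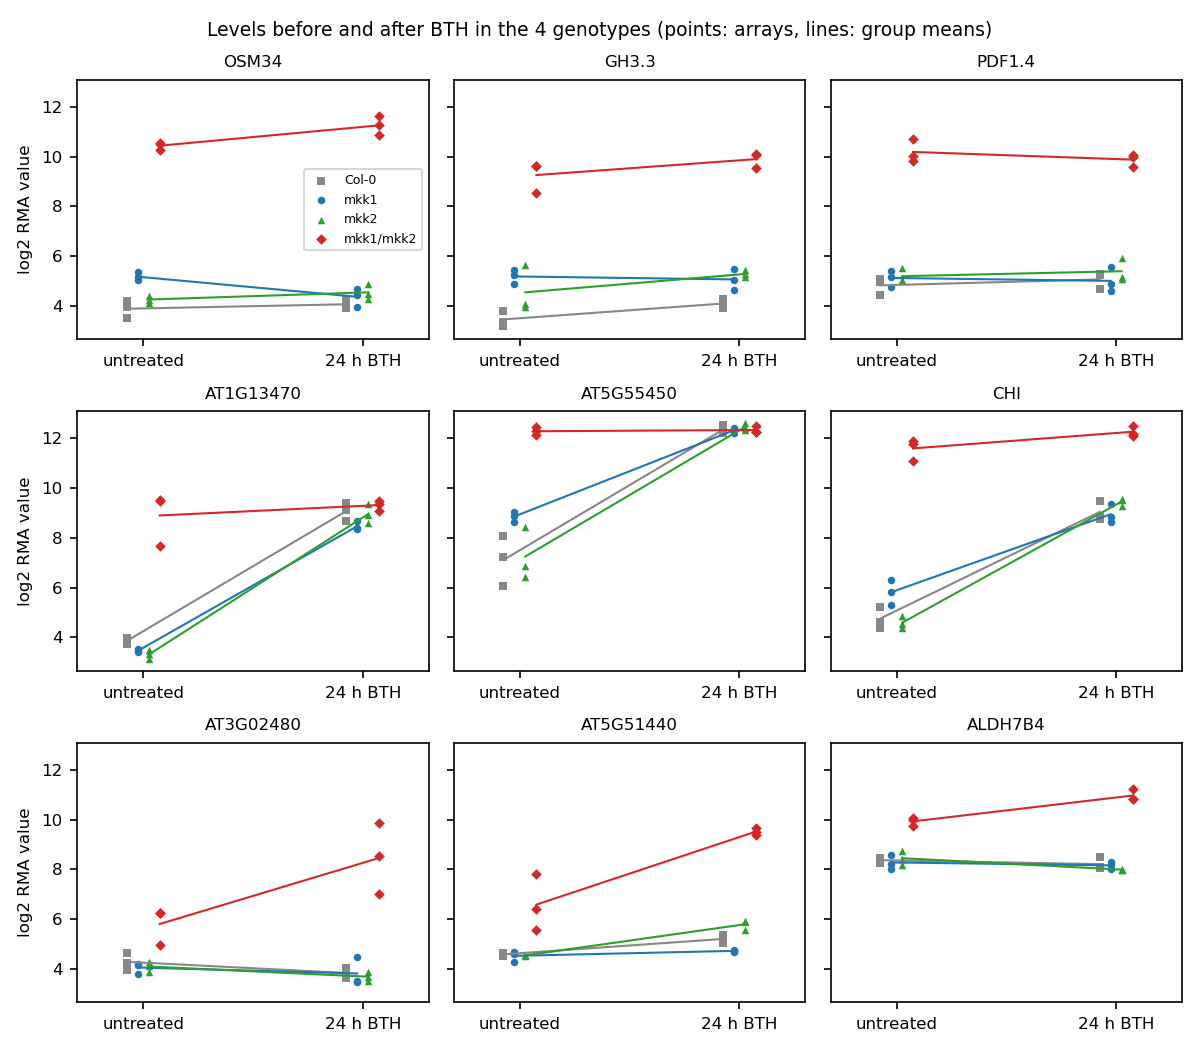
Log2 RMA values of single arrays (points) and group means (lines) untreated and 24 h after BTH for 9 genes in the 4 genotypes. The top row shows large untreated gaps that were kept after BTH (GH3.3 and PDF1.4) or widened (OSM34). The middle row shows BTH-induced genes whose gap closed or narrowed, and the bottom row further genes whose gap widened.

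In some stress genes the BTH response was higher in mkk1/mkk2 than in the single mutants. AT3G02480, of the dehydration-response list, read 9.85, 6.99 and 8.55 in treated mkk1/mkk2 and 3.46 to 4.48 in the single mutants, and its gap widened from 1.73 to 4.72 (response difference 2.98, adjusted p = 0.0037). The 3 double-mutant arrays spread over nearly 3 units, but all were above the single mutants. AT5G51440, a small heat shock protein gene, was tighter, at 9.52, 9.38 and 9.66 against 4.69 to 5.93, and widened from 2.05 to 4.27 (response difference 2.22, adjusted p = 0.0015). Fes1A, an Hsp70 cochaperone, widened from 1.04 to 2.89, and ALDH7B4, a stress-induced aldehyde dehydrogenase, from 1.56 to 2.90.

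Of 14 heat stress genes listed, 4 were measured. Of these 4, 3 were higher in mkk1/mkk2 after BTH and 2 had a higher response, where 11.5% and 1.66% of all probe sets were called. Of 6 cold, drought and abscisic acid genes measured (19 listed), 2 were higher (AT3G02480 and LEA4-5, 2.61 ± 0.38). COR15A, a chloroplast cryoprotective protein gene, was lower (-1.51 ± 0.38), where 11.7% of all probe sets were called lower. COR15A was at 8.79, 6.99 and 7.92 against 8.75 to 10.06, so that 1 double-mutant array overlapped the single mutants, and without replicate B the difference was -1.06 (adjusted p = 0.08). SAG29 had an untreated gap of 0.44 and UGT76E12 one of 0.41, and they reached 2.35 and 1.74 after BTH with called response differences of 1.91 and 1.33. In other genes the change came from the single mutants, as in AT1G62510, which averaged 9.31 and 9.49 in untreated mkk1 and mkk2 and 5.84 to 7.17 over the treated single-mutant arrays. It was at 6.92 to 8.67 in treated mkk1/mkk2, where the gap of 1.07 was not called (adjusted p = 0.086).

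Among all treated plants, the 3 mkk1/mkk2 arrays lay above all 9 other treated arrays for 2476 probe sets (10.9%) and below them for 2639 (11.6%). Col-0 and mkk1/mkk2 together lay above the 6 single-mutant arrays for 424 (1.86%) and below them for 610 (2.68%), as they did for petG. For these 1034 probe sets the 2 array sets do not overlap. Against Col-0 within one set, 4918 probe sets were called (21.6%, 2591 higher and 2327 lower), with 2210 higher and 2918 lower after centring.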

How the data were processed

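Per the submitters' processing notes, the deposited values are log2 expression values, computed by the authors with RMA, which corrects background, quantile-normalizes arrays and summarizes probes. The RMA version and which arrays were normalized together are not given in the sources used here. Of 22810 probe sets, 64 AFFX controls served for quality only and 22746 were tested, with no filter on level and no further transformation. A single gene was assigned to 13513 probe sets, several to 503 and none to 8730, and only the first kind was named or counted in lists, with the probe set of highest mean standing for a gene (13355 genes). Sequences were not used here. Precision is limited by the number of arrays (3 per group).

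Contrasts of 8 group means were fitted to all 24 arrays with limma 3.58.1 in R 4.3.3 (lmFit and eBayes), with Benjamini-Hochberg adjustment over all probe sets, and an adjusted p under 0.05 was called. The fit was tested on simulated data. The array sets could not be fitted as a block in the main contrast. Gene lists are described by counts and medians without a list test. The comparison and the lists were chosen with earlier results of these data known: 51 lists were set down first (37 with a measured gene) and 16 after the annotation was seen, among them the named defence, beta-glucosidase and mitochondrial lists. Genes named are the 12 largest non-overlapping rises and falls, the 8 largest response differences each way, the 5 largest between mkk1 and mkk2, up to 4 per list, and CHI, GRX480 and PDF1.2. A few further list members are named beside them, among them Prx37, ATG8C, ATG8F, ATG8G, PDF1B and those that did not pass, and these were chosen after their values were seen. Alternatives changed the fit, the scaling, the level filter, the threshold and the arrays included.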

Additional observations from a re-analysis of the deposited data

Results flagged for a closer look

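The BTH response of mkk1/mkk2 differed from that of the single mutants by a direct test (the interaction of genotype and treatment in the limma fit) in 378 probe sets with a higher and 693 with a lower response in the double mutant. The largest named differences of responses on the log2 scale are given here as mkk1/mkk2 minus single mutants. Higher responses were found for AT1G62510 (3.45), AT3G02480 (2.98), AT3G28220 (2.47), the expansin-like gene EXLA1 (2.35), UGT76E11 (2.31), AT5G51440 (2.22), LEA4-5 (2.04) and AT5G50915 (2.02). Of these 8, AT1G62510, EXLA1, UGT76E11 and AT5G50915 were not called between genotypes after BTH. UGT76E11 averaged 4.25 in untreated mkk1/mkk2 and 6.09 and 6.20 in untreated mkk1 and mkk2, and averaged 5.35 against 5.04 and 4.84 after BTH. AT3G28220 likewise went from a gap of -1.11 untreated to one of 1.36 ± 0.31 after BTH.

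Lower responses were found for AT5G52760 (-5.27), AT1G13470 (-4.93), AT3G01830 (-4.39), AT1G35710 (-4.32), AT5G55450 (-4.29), AT3G51330 (-4.27), AT5G59670 (-4.24), AT5G39670 (-3.53), CHI (-3.34) and GRX480 (-3.33). AT5G52760 averaged 11.06 in treated mkk1/mkk2 and lay at 9.44 to 10.73 in the treated single mutants, after untreated means of 10.87 against 4.79 and 4.19. The AT3G01830 arrays of the single mutants did not overlap after BTH, at 6.73 to 7.88 in mkk1 and 8.61 to 9.31 in mkk2, against 8.98 to 9.32 in mkk1/mkk2, and the gap was 1.82 to mkk1 and 0.26 to mkk2. AT5G39670 kept a called gap of 1.68. AT3G51330 was at 7.25 to 7.60 in mkk1/mkk2 and 7.67 to 8.52 in the single mutants, a difference of -0.68 that was not called.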

How the results depend on the processing

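Of the 141 genes named by rule and called in the main contrast, 114 were called under every alternative, 27 lost the call under 1 or more and 0 changed sign. Counts depended more on the settings. Requiring a 2-fold change left 1756 calls in the main contrast, 1904 against mkk1, 1538 against mkk2, 2248 against Col-0, 3270 untreated and 694 in the response difference. Fitting only the groups compared gave 8428 calls in the main contrast, 7415 against mkk1, 6198 against mkk2 and 3 between mkk1 and mkk2. Array weights, whose estimation stopped before its convergence tolerance was reached, gave 11036, 9103 and 10489 for the first 3 of these, 233 between mkk1 and mkk2 and 3363 in the response difference. Without untreated mkk1/mkk2 A, treated Col-0 A and untreated mkk2 B, each the lowest of its group in correlation, the counts were 8014, 7065 and 6044, 28 between mkk1 and mkk2 and 2076 in the response difference. Replicates of the compared groups were left out 1 at a time. This gave 3764 to 4868 calls in the main contrast, 3261 to 3601 against mkk1 and 2640 to 2896 against mkk2. Calls were 3 to 8 between mkk1 and mkk2 and 3770 to 4900 against Col-0. Leaving out untreated mkk1/mkk2 A, which lies outside these contrasts, gave 7088, 6171, 5113, 23 and 6351 in the same order. No other array outside a contrast was left out singly. Calls were 6980 to 9075 untreated. In the response difference they were 703 (without treated mkk1/mkk2 C) to 1651 (without untreated mkk1/mkk2 A). The replicate letters did not pair the samples (correlations of deviations between -0.171 and 0.282), and with the letter as a block the main count was 5446. The cause of these changes was not tested. In the response difference, the calls of EXLA1 and LEA4-5 were lost under 8 and 10 of 26 alternatives. In the main contrast, COR15A, AT5G48570 and TBL26 lost their calls without treated mkk1/mkk2 B, TET7, TET8 and atpA without A, XTH18 without C, SEC6 under 3 settings, GH3.9 under 8 and PDF1.2 under 9. Both named calls between mkk1 and mkk2 were lost under 4 of 15. Low probe sets have no detection call in these values, so small differences near the bottom of the scale are limited by background.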

Other observations

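Genes of further families are given here as values after BTH, as mkk1/mkk2 minus the mean of the single mutants on the log2 scale. The linker histone HIS1-3, known as drought-induced, was higher by 2.93 ± 0.47, at 7.31 to 8.69 against 4.42 to 5.62. Of 22 trichome birefringence-like genes, a family of cell wall polysaccharide acetyltransferases, 3 were higher and 4 lower, shares not far from the 11.5% and 11.7% of all probe sets, with TBL38 at 1.70 and TBL26 and TBL28 at -1.53 and -1.44 (TBL26 was at -1.20, adjusted p = 0.067, without treated mkk1/mkk2 replicate B). Of 15 tetraspanins, membrane scaffold proteins, TET9 (1.14) and TET8 (0.91) were higher and TET5 (-0.60) and TET7 (-0.49) lower, 13.3% each way and so also near that background. Without treated mkk1/mkk2 replicate A, TET8 (0.84, adjusted p = 0.057) and TET7 (-0.38, adjusted p = 0.068) were not called. Of 18 exocyst and vesicle genes, 5 were higher and 1 lower, among them VPS20.1 (1.23) and the exocyst subunits SEC6 (0.85) and SEC15A (0.70). The call of SEC6 was lost under 3 of 18 alternatives, at 0.73 without treated mkk2 replicate A, 0.71 without mkk1/mkk2 replicate B and 0.76 without mkk1/mkk2 replicate C. BZIP60, a transcription factor of the unfolded protein response, was higher by 0.87. The mean of the 4 measured endoplasmic reticulum folding genes, BZIP60 among them, was 9.14 in mkk1/mkk2, 9.05 in mkk1 and 9.39 in mkk2. Of 5 flavonoid and phenylpropanoid genes, 0 were called by limma and 1 had an unadjusted p under 0.05. Of 40 MADS-box genes, 2 were higher and 2 lower (5% each, below the share of all probe sets), and AGL87 was lower by -1.91 ± 0.19, at 5.04 to 5.39 against 6.89 to 7.35.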
